A study of Homo sapiens with 18 samples.

Results

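Immediate early genes were followed in LNCaP cells, a human prostate cancer line that responds to androgen. The 10 genes were FOS, FOSB and FOSL2 of the Fos family, JUN, JUNB and JUND of the Jun family, the zinc finger factor EGR1, the response genes IER2 and IER3, and the phosphatase gene DUSP1. They were picked by gene symbol, and all 10 had a row among the 34912 genes of the deposited tables. The experiment combined a knockdown of NFYA, a subunit through which the NF-Y complex contacts CCAAT sequences in DNA, or of the Krüppel-like factor KLF5, with the synthetic androgen R1881.

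Cells in all groups were kept in phenol red-free medium with 5% charcoal-stripped serum for 48 h and carried an siRNA pool, and were harvested after 24 h of treatment. The siNFYA groups were R1881 at 10 nM and its vehicle, 96% ethanol. The siKLF5 groups and the control siRNA groups, which carried a non-targeting pool, had the same pair of treatments. Each group had 3 libraries, apart from siKLF5 vehicle, of which 2 were analysed. The libraries of a group were not described as separate cultures, so p-values measure the spread between these libraries, which may be technical.

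Immediate early genes are transcribed within minutes of a growth factor or stress signal, without new protein synthesis, and their mRNAs are short-lived. Fos and Jun proteins pair through leucine zippers to form AP-1, a factor that binds its own DNA element, and EGR1 binds GC-rich sites. DUSP1 removes phosphates from MAP kinases and so acts back on the pathway that induces it. The libraries here come from cells taken a day after treatment began.

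Libraries held between 4416653 and 6872421 estimated counts. By these totals, 3 counts in 1 library stood for 0.437 to 0.679 CPM (counts scaled to library size), while the CPM given below also carry a scaling factor per library. Intervals on counts cover counting error only. NFYA was lower in siNFYA cells by 0.62 on the log2 scale in either treatment (adjusted p = 2.37e-07 with R1881 and 4.06e-07 with vehicle, edgeR). KLF5 was lower in siKLF5 cells with R1881 (log2 change -1.15, adjusted p = 0.000228), while with vehicle the change of -1.08 did not pass (adjusted p = 0.149), and siKLF5 vehicle replicate 3 had 3.03 CPM of KLF5 against 0.932 CPM in replicate 2 and 3.26 to 4.91 CPM in control siRNA cells with vehicle. The siNFYA vehicle replicate 3 stood apart by 26838 CPM of the pseudogene AC010970.1, against 973 to 3894 CPM in the other 16 libraries. All 11 luminal prostate markers had counts, and so did 4 of 5 basal, 5 of 7 neuroendocrine, 9 of 9 stromal and 6 of 9 blood and endothelial markers. Per library the luminal markers summed to 4292 to 17452 CPM, the basal ones to 39.5 to 54.2 CPM, the stromal ones to 15.7 to 32.3 CPM and the blood and endothelial ones to 8.91 to 16.3 CPM. The neuroendocrine markers summed to 13.1 to 15.1 CPM with R1881 and 34.3 to 38.0 CPM with vehicle in siNFYA cells, 15.9 to 18.0 and 41.6 to 43.9 CPM in siKLF5 cells, and 17.6 to 19.99 and 40.5 to 44.7 CPM in control siRNA cells. Their part in the results below was not tested. KRT5 of basal cells and CDH5, CD3E and HBB of endothelium and blood had no counts, and the androgen target KLK3 was higher with R1881 in each siRNA arm (log2 change 5.50 in siNFYA, 6.59 in siKLF5 and 5.97 in control siRNA cells).

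Since NFYA belongs to a factor that binds CCAAT, the upstream sequence of each gene was searched for that motif, and the hits are shown because all of them fell in the Jun family. Of the 10 genes, 9 had an entry in the RefSeq promoter table (GRCh38.p14), and the 250 bases before the start were read on both strands. CCAAT was present in 3 of the 9, which are JUN, JUNB and JUND, and in 32.0% of the 35116 promoters of the table. The share among the members was thus near that of all promoters, and the sites are shown as a description. The 30 bases around each match are given 5′ to 3′ on the gene's own strand, with CCAAT in capitals. The match begins 87 bases before the start in JUN (chr1:58784117-58784146, minus strand), 67 bases in JUNB (chr19:12791407-12791436, plus strand) and 74 bases in JUND (chr19:18281679-18281708, minus strand). In GENCODE v29 the JUN transcript starts further upstream, so that by that annotation the JUN match lies within the transcribed region.
JUN: gagcgacgcgagCCAATgggaaggccttgg
JUNB: ctccggcgacggCCAATcggagcgcacttc
JUND: cgtcacccgcacCCAATggcgaacgggggc

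The promoters of EGR1 and DUSP1 are shown because each holds an element of the classical immediate early response. Both genes also had a higher mean CPM with R1881 in each siRNA arm. They were picked with these values known, so the pairing of element and change is not a result. EGR1 (chr5:138465229-138465478, plus strand) had 2 matches to the CArG box, the element bound by serum response factor, and was the only one of the 9 with any, against 1.16% of all promoters. Elements further upstream than 250 bases were not searched for, and by GENCODE v29 the windows of FOS and FOSL2 reach into the gene. DUSP1 (chr5:172771196-172771445, minus strand) had TGACGTCA, the palindrome bound by CREB and ATF factors, 125 bases before the start. TGACGTCA was also found in JUND, so in 2 of the 9 and in 1.65% of all promoters. These matches stand in capitals. The AP-1 element TGANTCA was in none of the 9 and in 6.57% of all promoters, and GGGCGG, the core of the site for SP and KLF factors, was in 7 of the 9 and in 42.6% of all. No GGGCGG match overlapped the capitals. AGAACA, the hexamer of steroid receptor elements, was found only in FOSB among the 9, and in 12.4% of all promoters. FOSL2, which was higher with R1881 in every siRNA arm, had neither a CArG box nor TGACGTCA. JUND, which held TGACGTCA, passed with R1881 in none of the arms. A match is a run of letters and not a measured binding site.
EGR1: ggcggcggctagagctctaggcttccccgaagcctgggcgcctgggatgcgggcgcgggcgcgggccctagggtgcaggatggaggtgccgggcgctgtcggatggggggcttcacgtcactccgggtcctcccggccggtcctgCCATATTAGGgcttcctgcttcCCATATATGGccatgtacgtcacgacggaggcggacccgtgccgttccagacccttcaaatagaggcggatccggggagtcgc
DUSP1: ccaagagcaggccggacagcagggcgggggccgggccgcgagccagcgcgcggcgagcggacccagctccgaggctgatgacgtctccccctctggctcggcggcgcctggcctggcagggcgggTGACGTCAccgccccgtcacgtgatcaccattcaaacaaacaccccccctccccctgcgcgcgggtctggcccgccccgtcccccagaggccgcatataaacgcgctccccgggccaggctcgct

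By level per transcript length, the 10 genes spanned a wide range, with JUND at the top and FOS, EGR1 and FOSB close to the counting limit. Over the 17 libraries the deposited TPM (abundance scaled to transcript length and library size) of JUND had a median of 106 and ran from 91.9 to 139, above every value of the other genes. JUN followed with a median of 41.4 TPM (30.9 to 50.5) and IER2 with 34.7 TPM (24.7 to 42.2), and their ranges overlapped. JUNB had a median of 25.1 TPM (21.2 to 32.1), FOSL2 22.9 TPM (15.4 to 29.3) and DUSP1 18.6 TPM (14.0 to 24.3), and neighbours in this order overlapped too. IER3, which encodes a regulator of apoptosis, lay below all of these at 6.07 TPM (4.20 to 9.33).

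FOS, EGR1 and FOSB had medians of 0.750, 0.495 and 0.341 TPM, with overlapping ranges. The libraries held 0 to 8 estimated counts of FOS, 2 to 16 of EGR1 and 1 to 10 of FOSB. The position of FOSL2 in the order moved with treatment. With R1881 the means were 25.9 TPM for FOSL2 and 25.9 TPM for JUNB in siNFYA cells, 23.4 and 24.2 TPM in siKLF5 cells, and 25.9 and 25.1 TPM in control siRNA cells. With vehicle they were 16.4 TPM for FOSL2 and 28.3 TPM for JUNB in siNFYA cells, 18.0 and 24.9 TPM in siKLF5 cells, and 18.0 and 22.8 TPM in control siRNA cells.

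**Figure D1:**
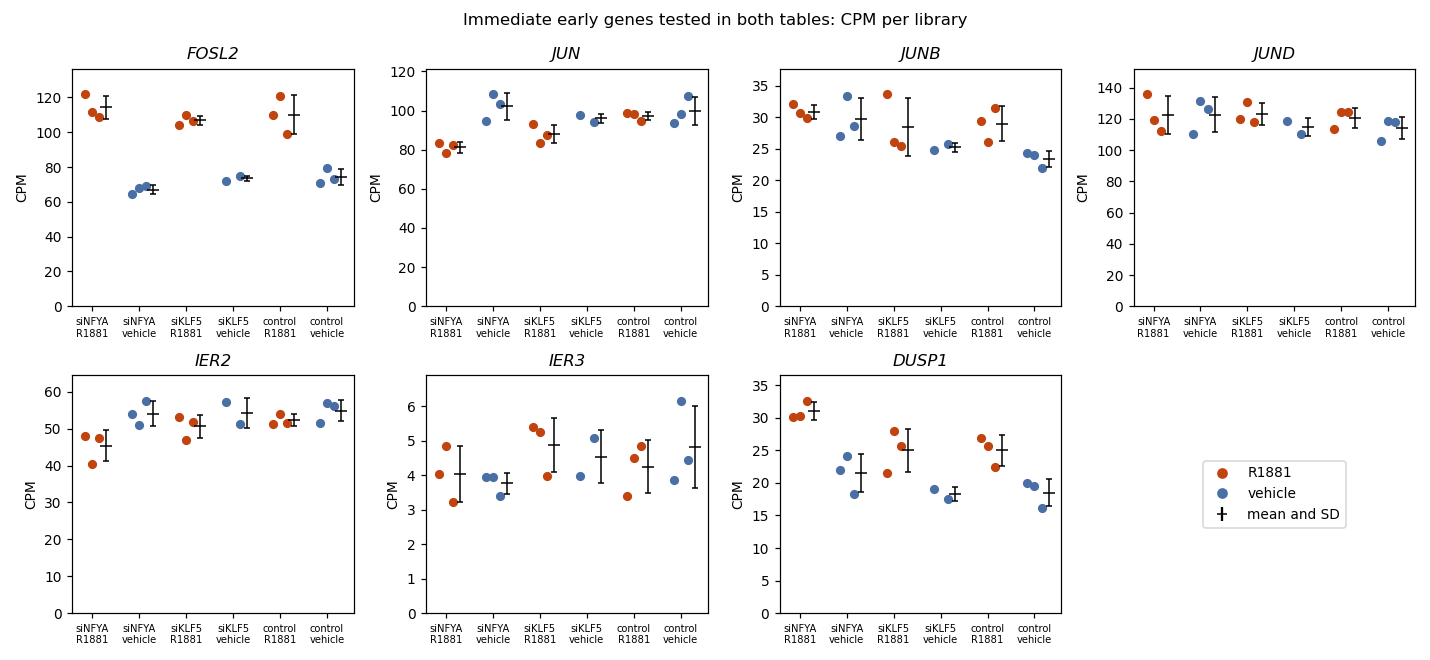
CPM (scaled by TMM over 17 libraries) of the 7 immediate early genes tested in both tables, one point per library in the 6 siRNA and treatment groups, with the mean and SD beside the points (n = 3, siKLF5 vehicle n = 2). The R1881 points of FOSL2 and DUSP1 lie above the vehicle points of the same siRNA arm, and the R1881 points of JUN lie below those of vehicle in siNFYA cells.

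The first question was which immediate early genes differed after 24 h of androgen, asked separately in the 3 siRNA arms, which share no library. The Fos family gene FOSL2 and the phosphatase gene DUSP1 were higher in all 3 arms, FOSL2 by 0.54 to 0.77 and DUSP1 by 0.43 to 0.51 on the log2 scale. JUNB passed as higher in control siRNA cells, and JUN and IER2 passed as lower in siNFYA cells. JUND and IER3 passed in none. A gene passed at an adjusted p under 0.05 in the quasi-likelihood test of edgeR, with Benjamini-Hochberg adjustment over all tested genes.

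In siNFYA cells 7 of the 10 genes had enough counts to be tested, and 2 were higher and 2 lower, where 62.1% of all 12601 tested genes passed, 31.2% higher and 31% lower. In siKLF5 cells 8 of the 10 were tested, among them EGR1, which passed the filter only through its R1881 libraries. Without EGR1, which was set aside after its values were seen, 2 of 7 were higher and 0 lower, against 59.2% of 12733 genes in all, 30.7% higher and 28.4% lower. In control siRNA cells 3 of 7 were higher and 0 lower, against 62.9% of all genes, 32.1% higher and 30.8% lower. With higher and lower genes counted as 1 share, the 7 genes did not exceed the background in any arm. By direction, only the share of 3 of 7 higher in control siRNA cells was above its background of 32.1%. With scaling by library totals in place of TMM (the trimmed mean of M values, which assumes that most genes do not change) the balance shifted, to 1 higher and 3 lower in control siRNA cells and 2 higher and 3 lower in siNFYA cells. The median log2 change of the same 7 genes was 0.049, 0.12 and 0.077 in siNFYA, siKLF5 and control siRNA cells, beside -0.018, -0.0059 and -0.010 over all tested genes. FOS and FOSB were left out by the filter on low counts in both tables, and EGR1 in the control and siNFYA table. R1881 and vehicle libraries did not overlap for 43.9% of all genes with counts in siNFYA, 51% in siKLF5 and 47.3% in control siRNA cells. An absence of overlap, as given for the genes below, was thus common. In bulk RNA, fewer cells with a transcript and less of it per cell cannot be told apart.

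FOSL2 encodes Fra-2, a Fos family protein that pairs with Jun proteins. In siNFYA cells it had 122, 112 and 109 CPM with R1881, against 64.3, 67.7 and 69.3 CPM with vehicle. In siKLF5 cells it had 104, 110 and 107 CPM with R1881, against 72.3 and 74.6 CPM with vehicle. In control siRNA cells it had 110, 121 and 98.8 CPM with R1881, against 70.6, 79.5 and 73.3 CPM with vehicle. Every R1881 library thus lay above every vehicle library of its arm, and the lowest of the R1881 libraries of any arm also lay above the highest vehicle library. The log2 change was 0.77 ± 0.071 (SE) in siNFYA cells (adjusted p = 8.6e-10), 0.54 ± 0.074 in siKLF5 cells (1.23e-06) and 0.56 ± 0.067 in control siRNA cells (7.4e-08, edgeR). The call held in each arm without any 1 library and under every other scaling and test that was run. The change in siNFYA cells exceeded that in control siRNA cells by 0.21 on the log2 scale (95% interval 0.0048 to 0.41), which did not pass after adjustment (adjusted p = 0.399).

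The reads of FOSL2 were assigned mostly to 1 of its 4 transcripts, the protein-coding ENST00000264716. It took 94.1% ± 4.03 (SD) of the gene's counts with R1881 and 94.1% ± 5.32 with vehicle in siNFYA cells, and 92.8% ± 2.07 with R1881 and 98.7% ± 2.20 with vehicle in control siRNA cells (n = 3 each). In siKLF5 cells it took 94.9% ± 5.34 with R1881 (n = 3) and 97.5% ± 3.55 with vehicle (n = 2). Scaled like the gene, this transcript had 102 to 112 CPM with R1881 and 57.0 to 68.8 CPM with vehicle in siNFYA cells, 97.3 to 103 and 68.5 to 74.5 CPM in siKLF5 cells, and 93.7 to 110 and 70.4 to 76.3 CPM in control siRNA cells, with no overlap in any arm.

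DUSP1, which has 1 annotated transcript, followed the same order at a lower level. It had 30.1, 30.3 and 32.6 CPM with R1881 in siNFYA cells, against 22.0, 24.2 and 18.3 CPM with vehicle. In siKLF5 cells the values were 21.5, 27.9 and 25.7 CPM with R1881, against 19.0 and 17.5 CPM with vehicle. In control siRNA cells they were 27.0, 25.6 and 22.4 CPM with R1881, against 19.9, 19.5 and 16.1 CPM with vehicle. The groups did not overlap in any arm, and the gap between the nearest libraries was widest in siNFYA cells. The log2 change was 0.51 ± 0.11 (SE) in siNFYA cells (adjusted p = 0.000311), 0.46 ± 0.13 in siKLF5 cells (0.00365) and 0.43 ± 0.11 in control siRNA cells (0.00192, edgeR). With scaling by library totals it was 0.29 in siNFYA cells, where it still passed, and 0.22 in siKLF5 and 0.19 in control siRNA cells, where it did not (adjusted p = 0.129 and 0.140). The call in the siKLF5 and control siRNA arms was also lost with limma on TPM (adjusted p = 0.224 and 0.112), which was likewise run without TMM factors.

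JUN, the prototype partner of Fos proteins, was lower with R1881 in siNFYA cells. There it had 83.4, 78.2 and 82.3 CPM with R1881, against 94.9, 108 and 103 CPM with vehicle, with no overlap. In siKLF5 cells it had 93.0, 83.6 and 87.3 CPM with R1881, against 97.5 and 94.4 CPM with vehicle. In control siRNA cells it had 98.6, 98.3 and 94.7 CPM with R1881, against 93.5, 98.2 and 107 CPM with vehicle, and the groups overlapped. The log2 change was -0.33 ± 0.063 (SE) in siNFYA cells (adjusted p = 6.11e-05), -0.13 ± 0.066 in siKLF5 cells (0.106) and -0.038 ± 0.059 in control siRNA cells (0.589, edgeR). The siNFYA call held without any 1 library. With library totals JUN was lower in all 3 arms, by 0.56, 0.36 and 0.28 on the log2 scale, and limma on TPM also called it in siKLF5 cells (log2 change -0.33, adjusted p = 0.00646).

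IER2, which encodes a nuclear protein induced by growth factors, was the other gene that was lower in siNFYA cells. It had 48.1, 40.5 and 47.4 CPM with R1881, against 53.9, 50.9 and 57.5 CPM with vehicle, with no overlap. The log2 change there was -0.26 ± 0.078 (SE, adjusted p = 0.00622, edgeR), and it was -0.10 ± 0.079 in siKLF5 and -0.073 ± 0.072 in control siRNA cells, where it did not pass (adjusted p = 0.270 and 0.393). The siNFYA call was lost without siNFYA vehicle replicate 3, the library rich in AC010970.1 (adjusted p = 0.0510), and without siNFYA R1881 replicate 2 (0.0669). With library totals IER2 also passed as lower in siKLF5 and control siRNA cells (log2 change -0.34 and -0.31), and limma on TPM called it in siKLF5 cells (-0.35, adjusted p = 0.0145). Its counts were split mostly between 2 transcripts, with ENST00000292433 taking between 36.9% and 63.8% over the R1881 libraries.

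JUNB, a Jun protein with weaker transactivation than JUN, was higher with R1881 in control siRNA cells. It had 29.4, 26.0 and 31.5 CPM with R1881, against 24.3, 24.1 and 21.9 CPM with vehicle, with no overlap. The log2 change was 0.30 ± 0.10 (SE, adjusted p = 0.0107, edgeR), and the corresponding values of 0.18 in siKLF5 and 0.049 in siNFYA cells did not pass (adjusted p = 0.200 and 0.689). The control call was lost without control R1881 replicate 3 (adjusted p = 0.0709), with DESeq2 (0.0541), with library totals (log2 change 0.067, adjusted p = 0.567) and with limma on TPM (0.13, adjusted p = 0.322). With library totals the values in siNFYA and siKLF5 cells turned to -0.18 and -0.059.

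JUND, a Jun family member present without stimulation in many cells, had 113 to 136 CPM with R1881 and 111 to 132 CPM with vehicle in siNFYA cells, with log2 changes of -0.0026 in siNFYA, 0.11 in siKLF5 and 0.077 in control siRNA cells (adjusted p = 0.978, 0.163 and 0.335, edgeR). Its sign depended on the scaling, since library totals gave -0.23, -0.13 and -0.16, of which the first and last passed (adjusted p = 0.00695 and 0.0423), and limma on TPM gave -0.28 in siNFYA cells (0.0486). IER3 had 15 to 43 estimated counts per library and log2 changes of 0.10, 0.12 and -0.19 in siNFYA, siKLF5 and control siRNA cells. The 95% interval in control siRNA cells ran from -0.69 to 0.32, which leaves room for a change in either direction.

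**Figure D2:**
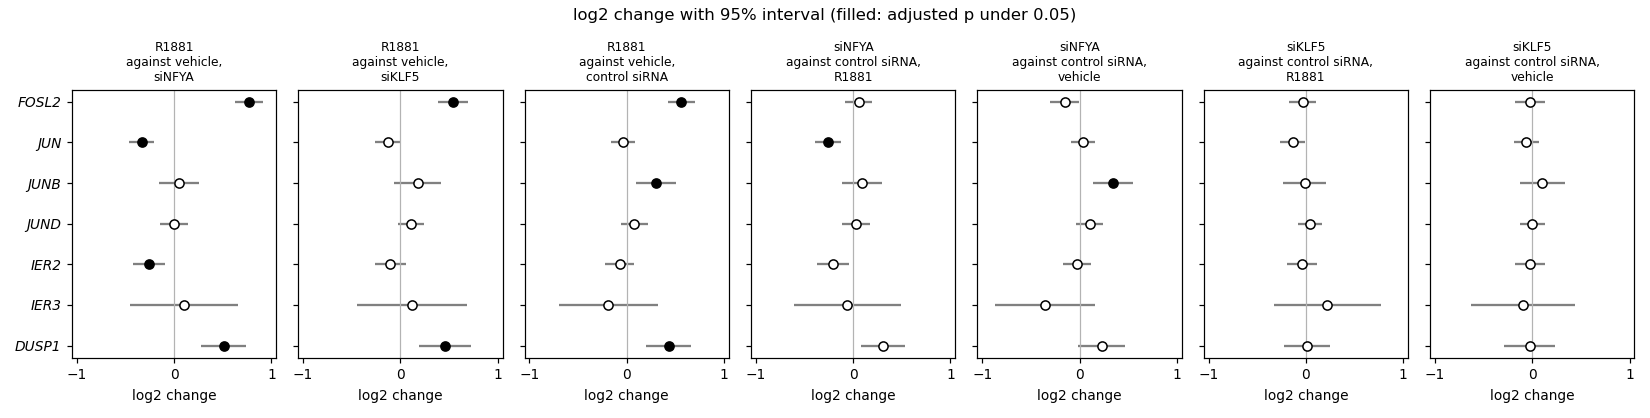
Log2 change with its 95% interval for the 7 immediate early genes tested in both tables, in 7 comparisons (edgeR). Filled points passed at adjusted p under 0.05: FOSL2 and DUSP1 in all 3 R1881 comparisons, JUN and IER2 (lower) with R1881 in siNFYA cells, JUNB with R1881 in control siRNA cells, JUN (lower) in siNFYA against control siRNA cells with R1881 and JUNB in the same pair with vehicle.

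The TMM factors of the libraries differed by treatment. They were 0.919 to 0.935 with R1881 and 1.06 to 1.10 with vehicle in siNFYA cells, and 0.922 to 0.934 with R1881 and 1.09 to 1.10 with vehicle in the other arms. Library totals moved the median log2 change of all tested genes to -0.24 in siNFYA, -0.24 in siKLF5 and -0.25 in control siRNA cells. The share of higher genes among those called fell to 28.1%, 28.0% and 28.2% in these arms, against 50.2%, 51.9% and 51.1% with TMM. The fit of limma on TPM was also made without TMM factors. Its medians over all tested genes were -0.17, -0.18 and -0.15 in these arms, so it was not independent of the choice of scaling. With library totals FOSL2 and DUSP1 had log2 changes of 0.54 and 0.29 in siNFYA, 0.31 and 0.22 in siKLF5, and 0.32 and 0.19 in control siRNA cells.

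**Figure D3:**
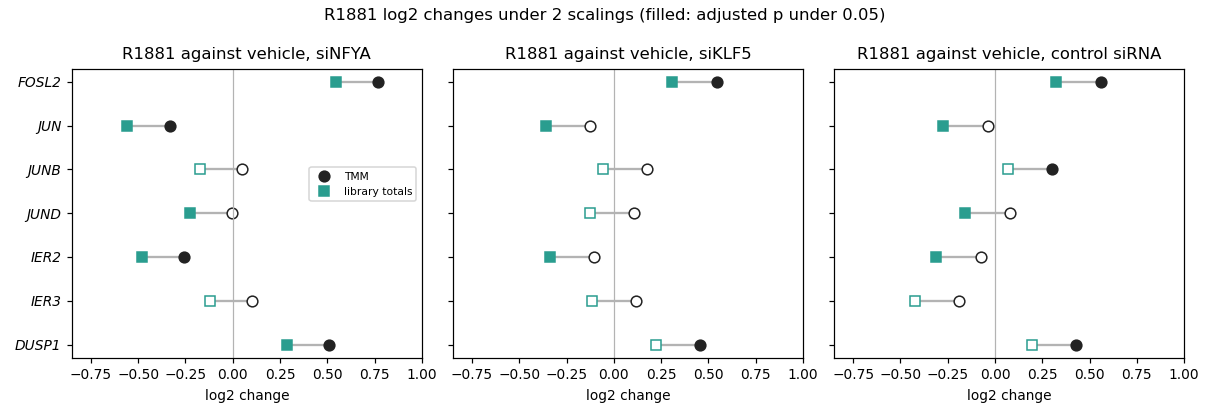
Log2 change with R1881 against vehicle in each siRNA arm for the 7 genes under TMM scaling (circles) and scaling by library totals (squares), with filled symbols for adjusted p under 0.05. All 7 genes move to lower values under library totals, and FOSL2 stays filled and positive in all 3 arms.

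EGR1 and FOS, the most quickly induced genes of the class, had few counts. EGR1 had 7, 13 and 5 estimated counts with R1881 in siNFYA cells, against 2, 3 and 6 with vehicle. In siKLF5 cells it had 7, 16 and 9 with R1881, against 4 and 5 with vehicle. In control siRNA cells it had 5, 11 and 7 with R1881, against 3, 5 and 4 with vehicle. Per library size the groups overlapped in siNFYA cells and did not in the other arms. Summed over a group and divided by library size, the ratio of R1881 to vehicle was 2.38 in siNFYA (95% counting interval 1.13 to 5.35), 3.60 in siKLF5 (1.68 to 8.58) and 2.48 in control siRNA cells (1.19 to 5.48). EGR1 could be tested in the siKLF5 table, where the log2 change was 1.81 ± 0.53 (SE, adjusted p = 0.00558, edgeR). Since it passed the filter there through its R1881 libraries, this call is a description of a gene that had to be high in them. A fit with no filter gave log2 changes of 1.20 in siNFYA and 1.28 in control siRNA cells that did not pass (adjusted p = 0.0932 and 0.0648, edgeR). The intervals of that fit carry no allowance for the few libraries, so its p-values do not measure each gene's own spread. For FOSL2 in control siRNA cells its unadjusted p was 1.16e-21, against 1.43e-08 with the filter, at log2 changes of 0.57 and 0.56 (edgeR).

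FOS had 2, 5 and 4 estimated counts with R1881 in siNFYA cells, against 3, 4 and 5 with vehicle. It had 5, 3 and 8 with R1881 in siKLF5 cells, against 2 and 0 with vehicle, and 6, 6 and 6 with R1881 in control siRNA cells, against 5, 2 and 0 with vehicle. The group ratios were 0.958 in siNFYA (95% counting interval 0.383 to 2.37), 8.10 in siKLF5 (1.91 to 72.7) and 3.33 in control siRNA cells (1.33 to 9.44). With no filter, FOS passed in siKLF5 (log2 change 2.86, adjusted p = 0.00853) and control siRNA cells (1.67, adjusted p = 0.0417) and not in siNFYA cells (-0.066, edgeR). The difference between the siNFYA and control siRNA arms did not pass (adjusted p = 0.678, edgeR). These FOS calls have the limit given for EGR1, that the p-values do not measure the gene's own spread between libraries.

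The transcripts behind the FOS counts differed between the control groups. The protein-coding ENST00000303562 took 2.22 of the 18 counts with R1881 and 6.41 of the 7 counts with vehicle in control siRNA cells, and ENST00000555347 took 9.78 of the 18 with R1881. In siNFYA cells ENST00000303562 took 10.3 of 11 counts with R1881 and 7.81 of 12 with vehicle. At this depth the assignment to transcripts rests on a handful of reads. FOSB had 8 counts with R1881 and 11 with vehicle in siNFYA cells, 7 and 14 in siKLF5 cells, and 13 and 23 in control siRNA cells, with ratios of 0.760, 0.507 and 0.733 whose counting intervals all included 1.

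**Figure D4:**
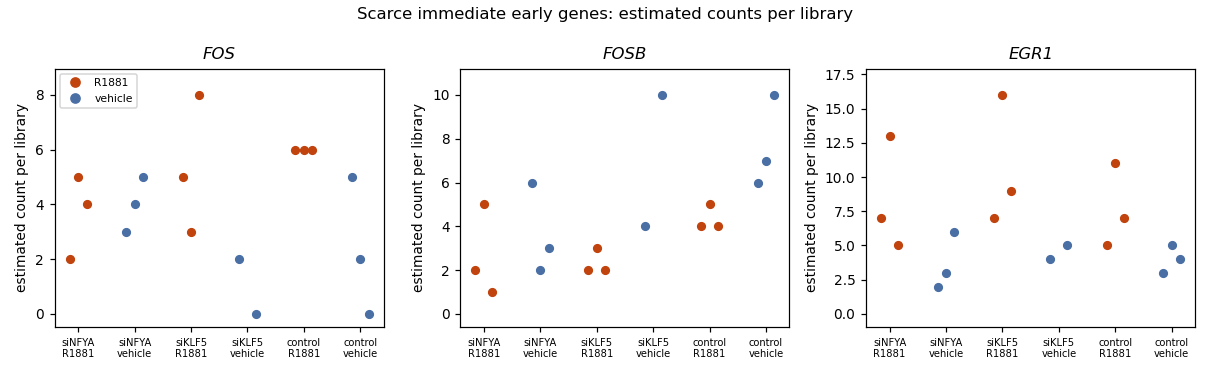
Estimated counts per library of FOS, FOSB and EGR1 in the 6 siRNA and treatment groups, one point per library. EGR1 reaches 16 counts in a siKLF5 library with R1881 and stays at 6 or fewer with vehicle in all 3 arms.

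The next question was whether these genes differed with siNFYA at a fixed treatment. NFYA mRNA was lower there by 0.62 on the log2 scale and not absent. With R1881, 1 of 7 tested genes passed, where 5.96% of all tested genes did, and with vehicle 1 of 7, where 13.5% did. The siNFYA and control siRNA libraries did not overlap for 17.7% of all genes with counts with R1881 and 21.8% with vehicle. JUN was the gene that passed with R1881. Its values with R1881 were given above and averaged 81.3 ± 2.77 CPM in siNFYA cells and 97.2 ± 2.15 CPM in control siRNA cells (SD, n = 3 each), without overlap. The log2 change was -0.26 ± 0.064 (SE, adjusted p = 0.0155, edgeR), and it was 0.037 ± 0.058 with vehicle (0.741). The R1881 call was lost with limma on TPM (-0.30, adjusted p = 0.0934), without control R1881 replicate 1 or 2 (0.0636 and 0.0529) and without siNFYA R1881 replicate 2 (0.0744).

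JUNB was the gene that passed with vehicle, at 27.0, 33.4 and 28.6 CPM in siNFYA cells, against 24.3, 24.1 and 21.9 CPM in control siRNA cells. The groups did not overlap, and the siNFYA libraries were more spread. The log2 change was 0.35 ± 0.099 (SE, adjusted p = 0.0205, edgeR), and it was 0.092 ± 0.10 with R1881 (0.683). The call was lost without control vehicle replicate 3 (adjusted p = 0.0799), without siNFYA vehicle replicate 2 (0.170), with DESeq2 (0.114) and with limma on TPM (0.147). DUSP1 was 0.31 ± 0.11 higher on the log2 scale in siNFYA cells with R1881 and 0.23 ± 0.12 with vehicle, and did not pass (adjusted p = 0.0985 and 0.214). FOSL2, JUND and IER3 did not pass in either treatment.

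The control siRNA libraries differed from both knockdowns in their share of mitochondrially encoded counts. It was 2.54% to 2.62% with R1881 in siNFYA cells, against 1.33% to 1.44% in control siRNA cells, and 2.60% to 3.00% with vehicle in siNFYA cells, against 1.77% to 2.07% in control siRNA cells. With the mitochondrial genes and AC010970.1 left out, JUN had a log2 change of -0.27 (adjusted p = 0.0118) with R1881 and JUNB of 0.35 (0.0196) with vehicle. Retained-intron transcripts held 2.56% to 2.66% of counts in siNFYA cells and 1.96% to 1.98% in control siRNA cells with R1881, and their part in these results was not tested.

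Whether the response to R1881 itself differed between siNFYA and control siRNA cells was tested as an interaction, in which 0 of 7 genes passed and 0.722% of all tested genes did. JUN came nearest with -0.30 ± 0.086 (SE) on the log2 scale (adjusted p = 0.115, edgeR), and 2 of the 7 genes, JUN and FOSL2, had an unadjusted p under 0.05. With no filter JUN passed (adjusted p = 0.0364, with the limit on that fit given for EGR1), while DESeq2 and limma on TPM called 0 of the 7. The lower JUN and IER2 with R1881 in siNFYA cells are therefore not shown to be particular to that arm.

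In siKLF5 against control siRNA cells no member passed, though with vehicle the fall of KLF5 itself had not passed either. With R1881, 0 of 8 genes passed and 1.38% of all tested genes did, and with vehicle 0 of 8 and 1.32%. In the interaction with R1881 0 of 8 passed, against 0.0157% of all genes. DESeq2 and limma on TPM also called 0 in each. At an unadjusted p under 0.05 there was 1 gene with R1881, JUN, and 0 in the other comparisons. JUN had 93.0, 83.6 and 87.3 CPM in siKLF5 cells with R1881, all below the 3 control libraries, and a log2 change of -0.14 (95% interval -0.26 to -0.0061, adjusted p = 0.371). Of all genes with counts, 14.6% had no overlap between these groups. For FOSL2 the interval was -0.17 to 0.10 with R1881 and -0.18 to 0.13 with vehicle, and for JUND -0.084 to 0.17 and -0.13 to 0.13, so changes beyond these bounds were outside the 95% intervals. For EGR1 it was -0.30 to 1.48 with R1881 and -1.29 to 1.38 with vehicle, which leaves wide room.

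Over the 6 group means of log2 CPM the members fell into opposed patterns. JUN and IER2 went together (Pearson r = 0.940) and so did JUNB and JUND (0.926), while DUSP1 ran against IER2 (-0.919) and with FOSL2 (0.858). The points share libraries and 1 scaling, and such values over 6 means are a description. JUND averaged 123 ± 6.98 CPM in its highest group, siKLF5 with R1881, and 114 ± 7.06 CPM in its lowest, control siRNA with vehicle (SD). It passed in no comparison with TMM, so its pattern rests on differences of the size of the spread between libraries. Of 10608 protein-coding genes searched, those most like FOSL2 in this measure were SGK3 (0.999), CASD1 (0.999) and LIG4 (0.999). Those most like JUN were TBC1D22A (0.995), LYRM4 (0.990) and STEAP3 (0.990), and those most like DUSP1 were CYB561D1 (0.996), THAP4 (0.996) and NADK (0.995).

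Some other genes of the class and of the pathway around it had larger changes with R1881 than any tested member. Of 41 other immediate early genes 32 were tested, and in control siRNA cells 14 were higher and 11 lower, with a median log2 change of 0.24, where 32.1% of all tested genes were higher and 30.8% lower with a median of -0.010. This list and those below were chosen with earlier results of these data known. Their R1881 counts are given with TMM only, and library totals moved the median of all tested genes to -0.25 in control siRNA cells. The kinase gene SGK1 had 46.6 ± 0.481 CPM with R1881 and 3.57 ± 0.524 CPM with vehicle, a log2 change of 3.70 (adjusted p = 2.82e-18, edgeR). The nuclear receptor gene NR4A1 had 59.6 ± 2.81 and 6.71 ± 0.806 CPM, a log2 change of 3.15. The NF-kappaB inhibitor gene TNFAIP3 rose by 2.45 and the transcription factor gene KLF4 by 2.40. The antiproliferative gene BTG2 had 13.3 ± 1.43 CPM with R1881 and 62.0 ± 5.42 CPM with vehicle, a log2 change of -2.22 (adjusted p = 6.16e-16). IER5, the EGR corepressor gene NAB1 and ID3 fell by 1.78, 1.48 and 1.31 on the log2 scale. In siNFYA cells 14 of the 32 were higher and 12 lower, and in siKLF5 cells 14 higher and 10 lower, where 31.2% and 30.7% of all tested genes were higher and 31% and 28.4% lower.

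Among 13 tested phosphatases and feedback inhibitors of MAP kinase signalling, 7 were higher and 4 lower with R1881 in control siRNA cells, and the 62.9% of all genes that passed there is the background for each list that follows. ERRFI1, an inhibitor of the EGF receptor, had 363 ± 14.5 CPM with R1881 and 28.6 ± 3.30 CPM with vehicle, a log2 change of 3.66. The DUSP1 relatives DUSP3 and DUSP10 were higher by 0.50 and 0.45, while DUSP16, DUSP2 and DUSP22 had changes of -0.45, -0.44 and -0.38 (log2, with TMM). Of 27 MAP kinases and upstream kinases, all tested, 16 were higher and 7 lower. MAP2K4, which activates the kinases that phosphorylate JUN, had a log2 change of 1.50 and EGFR of 1.14, against -2.52 for MAP2K6 and -0.97 for ERBB2. Of the 11 SRF, TCF and CREB factors, which act on the elements named for EGR1 and DUSP1, 6 were higher and 2 lower. ELK4 had 354 ± 6.39 CPM with R1881 and 116 ± 7.61 CPM with vehicle, a log2 change of 1.61, and SRF rose by 0.59. The 2 that were lower were ELK3 and MKL2, with log2 changes of -0.97 and -0.16. Of 10 tested AP-1 partners outside the Fos and Jun families 7 were higher and 1 lower, with MAF at 231 ± 6.67 CPM with R1881 and 10.0 ± 1.46 CPM with vehicle, and JDP2, a repressor that pairs with JUN, lower by 0.39.

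In siNFYA against control siRNA cells with vehicle, 3 of the 32 other immediate early genes were higher and 2 lower, near the 13.5% of all tested genes that passed. NR4A1 averaged 11.3 ± 0.553 CPM in siNFYA cells and 6.71 ± 0.806 CPM in control siRNA cells, a log2 change of 0.75 (adjusted p = 0.00226, edgeR), and ATF3 34.6 ± 1.68 and 26.5 ± 1.71 CPM, a log2 change of 0.39 (0.0111). BTG1 was lower by 0.54 (adjusted p = 1.05e-07) and MCL1 by 0.19 (0.00229). With R1881 1 was higher and 2 lower, where 5.96% of all tested genes passed. In siKLF5 against control siRNA cells 0 of 32 passed in either treatment, where 1.38% of all tested genes did with R1881 and 1.32% with vehicle (edgeR). In each, 5 of the 32 had an unadjusted p under 0.05, and DESeq2 and limma on TPM also called 0.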

How the data were processed

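RNA from LNCaP cells was purified on columns and made into directional libraries, per the labels' protocols. FastQC, Trimmomatic, kallisto, DESeq2 and the GRCh38 build appear, without versions, in the submitters' processing notes. The deposited gene tables hold estimated counts by the authors, summed per gene and not normalized, per the file headers. Further deposited tables join, for each gene and transcript, the estimated count, the TPM and another number that has no name and was not used. Replicate 1 of siKLF5 vehicle was not analysed here, since no column carries its label. The members and lists were chosen with earlier results of these data known.

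The siNFYA and siKLF5 tables were fitted separately, with the control libraries in both: 12601 genes for siNFYA and 12733 for siKLF5. After rounding, filterByExpr removed low counts, TMM set the scaling, and edgeR 4.0.16 (R 4.3.3) gave quasi-likelihood tests from 1 coefficient per group, with Benjamini-Hochberg adjustment. The R1881 comparison in control siRNA cells comes from the siNFYA table. The test was run first on simulated data. Printed CPM were scaled over all 17 libraries. Counting intervals (95%, exact) used SciPy 1.17.1. Alternatives were other scalings, no filter, DESeq2 1.42.0, limma 3.58.1 on log2(TPM + 1), fits of the compared groups only, omission of mitochondrial genes and AC010970.1, and omission of each library. Named genes were the 10 members, up to 4 largest rises and falls per list for R1881 in control siRNA cells and up to 2 for knockdowns (mean of at least 5 CPM, groups without overlap), and the 3 genes nearest in pattern. Promoters came from RefSeq and gene annotation from GENCODE v29. Figures used matplotlib 3.10.9.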

Additional observations from a re-analysis of the deposited data

How the results depend on the processing

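No paired analysis was possible because no number in the labels is shared between groups. FOSL2 with R1881 kept its direction and its call in all 3 arms under every alternative run. The number of members called with R1881 in control siRNA cells was 3, all higher. It was 4 with library totals, of which 1 was higher and 3 lower, 4 with no filter, 2 with DESeq2 and 1 with limma on TPM. Library totals gave 2 higher and 3 lower in siNFYA cells and, with EGR1, 2 higher and 2 lower in siKLF5 cells, and limma on TPM gave the same counts in these arms. Leaving out a library gave 2 to 3 calls in control siRNA cells, 3 to 4 in siNFYA cells and, with EGR1, 3 to 3 in siKLF5 cells. For siNFYA against control siRNA cells the count of 1 with vehicle became 0 with DESeq2 and with limma on TPM, and that of 1 with R1881 became 0 with limma on TPM; leaving out a library gave 0 to 1 in both. The siNFYA interaction had 0, and 1 with no filter. The cause was not tested.

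Reversals all lay in values that had not passed. JUND with R1881 was -0.160 (control) with library totals and -0.129 with limma on TPM, and in siNFYA cells 0.0013 with DESeq2 size factors, 0.0029 with no filter and 0.000087 with DESeq2; in siKLF5 cells it was -0.128 and -0.117 with library totals and limma on TPM. IER3 was -0.120 and -0.0785 (siNFYA) and -0.116 and -0.0905 (siKLF5), and JUNB -0.175 and -0.118 (siNFYA) and -0.0586 and -0.0465 (siKLF5), each with library totals and limma on TPM in that order. With limma on TPM, siNFYA against control siRNA cells with R1881 gave -0.0072 for FOSL2 and -0.0233 for JUND.

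Leaving out a library reversed small values. With R1881 in control siRNA cells IER3 ran from -0.323 to 0.0281 and JUN from -0.0821 to 0.0177; in siNFYA cells JUND ran from -0.0829 to 0.0554, IER3 from -0.0573 to 0.233 and JUNB from -0.0187 to 0.149; in siKLF5 cells IER3 ran from -0.0501 to 0.303. For siNFYA against control siRNA cells with vehicle IER2 ran from -0.0799 to 0.0185 and JUN from -0.0118 to 0.0932, and with R1881 FOSL2 from -0.0147 to 0.130, JUND from -0.0532 to 0.0813 and IER3 from -0.220 to 0.0698. EGR1 for siKLF5 against control siRNA cells with vehicle ran from -0.142 to 0.220.

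Over all genes, limma on TPM called 457 genes for siNFYA with vehicle against 1696, 194 with R1881 against 751, and 1 against 91 in the interaction, where no filter gave 326 and library totals made 61.9% of calls higher against 46.2%. For siKLF5 it called 2 against 168 with vehicle and 36 against 176 with R1881, no filter gave 409 and 388, and 106 against 2 in the interaction. Leaving out a library gave 1074 to 1619 and 413 to 677 for siNFYA, 44 to 267 in its interaction, 74 to 439 and 70 to 102 for siKLF5, and 1 to 57 in its interaction. FOS, FOSB and EGR1, at 16 counts or fewer per library, are limited by depth.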
